A study of Mus musculus with 8 samples.

Results

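The 9 genes described here encode the core machinery that makes mouse microRNAs and loads them into silencing complexes. They were picked by gene name, with earlier results of these data known, under a rule that uses no measured value. They are Drosha and Dgcr8 of the nuclear Microprocessor, the export receptor Xpo5, the cytoplasmic nuclease Dicer1 and its partner Tarbp2, and the 4 Argonautes, which the deposited table lists as Ago1, Ago2, Ago3 and Ago4 and which are given here by their older symbols Eif2c1, Eif2c2, Eif2c3 and Eif2c4 in that order. All 9 were found on a row of their own among 38924 gene rows. All 9 also passed the filter for testing, which asked for 1 or more in 2 or more libraries and left 17698 genes.

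MicroRNAs are short RNAs that pair with messenger RNAs and lower their translation and stability. A long primary transcript is cropped in the nucleus by Drosha with its RNA-binding partner Dgcr8, the resulting hairpin is carried to the cytoplasm by Xpo5 with the GTPase Ran, Dicer1 removes the loop, and an Argonaute protein keeps the mature strand and recruits the silencing complex. In mouse embryonic stem cells, which derive from the inner cell mass, loss of Dgcr8 or Dicer1 is known to slow proliferation and to block differentiation.

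RNA sequencing was carried out on 3 libraries of diapaused inner cell mass, 2 libraries of post-implantation epiblast and 3 libraries of inner cell mass (ICM), the inner part of the blastocyst. Every library was a pool of about 50 embryos from C57BL/6 females. Diapause, in which the blastocyst pauses before it implants, was brought about on day 3.5 by injected tamoxifen together with 0.5 mg of Depo Provera, and those blastocysts were taken 5 days later. The arrest, the greater age and the hormone treatment therefore cannot be told apart. ICM came from blastocysts of day 3.5, and the trophectoderm of both kinds of blastocyst was lysed with antibody and complement. Epiblast came from embryos of day 6.5. No group carried a mutation or transgene. Apart from the replicate numbers, nothing in the labels ties a library of a group to a library of another.

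Levels are adjusted TPM, a per-length abundance by its column name, and are given per library in the order of the replicate numbers or as mean ± SD. Differences are on the scale log2(value + 1), given ± SE with a 95% interval, from limma's moderated test. P-values were adjusted over the 17698 genes by Benjamini-Hochberg, and a gene was called where the adjusted p was under 0.05. Counts at an unadjusted p under 0.05 have no share of all genes beside them, because that share was not computed. On this scale the change of genes with low levels is understated. The column sums ran from 925053 to 1179026 in diapaused ICM, 1017225 and 1135971 in epiblast, and from 720674 to 983116 in ICM, with the lowest in ICM replicate 2. Read totals are not part of the values, so the depth behind each level is unknown. The 3 comparisons use the same 8 libraries and share groups, and are not independent of each other.

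Tissue markers were checked against the labels. The summed level of 5 post-implantation epiblast markers was 8.14 to 14.1 in diapaused ICM, 320 to 634 in epiblast and 24.4 to 37.1 in ICM, and that of 7 naive ICM markers was 389 to 421, 142 to 159 and 1440 to 1700 in the same order. The gap between diapaused ICM and ICM in the naive sum lay in Dppa3, at 45.9, 59.6 and 44.2 in diapaused ICM and 1050, 1360 and 987 in ICM, and the sum over the other 6 overlapped, at 345 to 367 in diapaused ICM and 341 to 457 in ICM. Summed markers of primitive endoderm and of blood and immune cells also differed between the groups. Those of trophectoderm in diapaused ICM overlapped with either other group. The sum over 6 primitive endoderm markers was 134 to 251 in diapaused ICM, 13.2 to 25.6 in epiblast and 52.8 to 54.2 in ICM. The sum over 7 trophectoderm markers was 37.4 to 163, 48.1 to 50.8 and 28 to 44.4, with the 163 in diapaused ICM replicate 3. The sum over the 5 blood and immune markers in the table was 47.3 to 134, 2.33 to 4.1 and 4.99 to 10.1. Of these 5, Ptprc and Cd52 were below 1 in every library, as were all 5 decidua and stroma markers. The blood and immune sum in diapaused ICM lay mostly in Cd68 (80.6, 29.6 and 25.3) and Laptm5 (53.2, 20.8 and 21.5), with Hba-a1 at most 3.3. Markers within a list did not all move alike. In diapaused ICM against ICM, Gata4, Pdgfra, Dab2 (mean 115 against 12.2) and Sox7 were higher, Sox17 overlapped and Gata6 was lower. Means of Cdx2, Eomes and Elf5 were lower in diapaused ICM than in ICM, and those of Gata3, Krt8, Krt18 and Tead4 higher. In diapaused ICM replicate 3, Krt18 was at 121 and Krt8 at 17.6. The part of these cells in the differences given here was not tested. In pools of tissue, fewer cells of a type and less RNA per cell cannot be told apart.

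**Figure D1:**
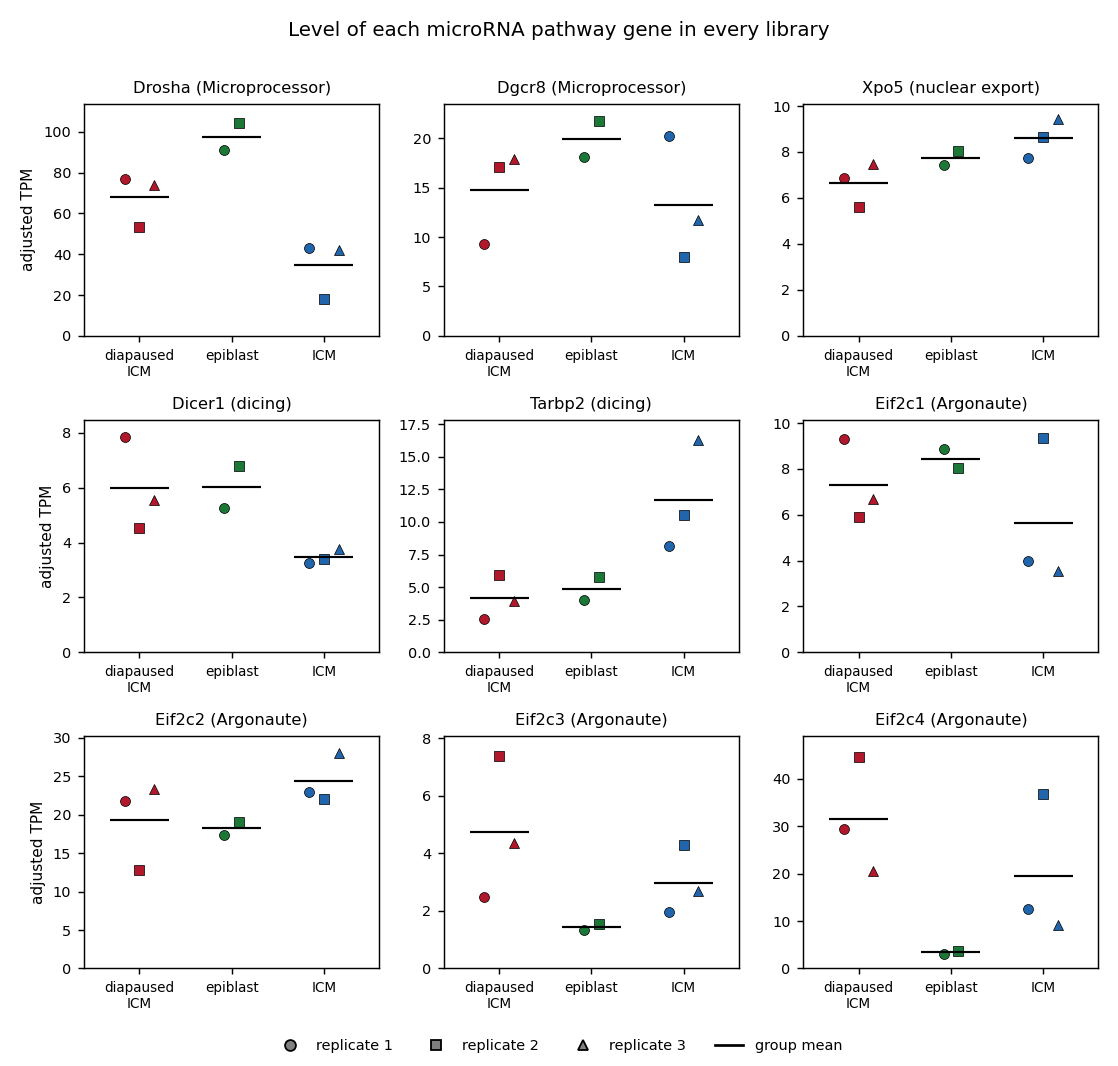
Level of each of the 9 genes (vertical axis, adjusted TPM, a separate scale from 0 in each panel) in every library, with diapaused ICM at the left, epiblast in the middle and ICM at the right; points are libraries and horizontal bars are group means. Eif2c4 lies between 20.5 and 44.6 in diapaused ICM and at 3.04 and 3.76 in epiblast, and Tarbp2 is at or below 5.95 outside ICM and at or above 8.17 in ICM.

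The Microprocessor came first. Drosha, the nuclease that crops primary transcripts, had the highest mean level of the 9 genes in every group. It stood at 76.9, 53.3 and 73.8 in diapaused ICM, at 90.8 and 104 in epiblast and at 43.1, 18.1 and 42.2 in ICM. Every epiblast library and every diapaused ICM library lay above every ICM library, and the lowest ICM library was replicate 2. Drosha rose in epiblast relative to ICM, with a log2 difference of 1.57 ± 0.38 (95% interval 0.70 to 2.43, limma adjusted p = 0.016) and 2.83 times the mean. Between diapaused ICM and ICM the difference was 1.04 ± 0.34 (0.27 to 1.81) and did not pass (adjusted p = 0.082), although all 3 diapaused libraries were higher. Without ICM replicate 2 this difference was 0.64 (adjusted p = 0.13), and with quantile normalization it was 1.17 and passed (adjusted p = 0.036). The epiblast call needed both epiblast libraries, since the adjusted p was 0.076 without replicate 1 and 0.092 without replicate 2, at differences of 1.67 and 1.47, and it was also lost without the filter on low values (adjusted p = 0.063).

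Dgcr8, the RNA-binding subunit that recognises the hairpin, did not pass in any comparison. Its levels were 9.32, 17.1 and 17.9 in diapaused ICM, 18.1 and 21.7 in epiblast and 20.2, 7.99 and 11.7 in ICM. Diapaused ICM and ICM overlapped over most of their range. The difference of diapaused ICM from ICM was 0.18 ± 0.36 (95% interval -0.63 to 0.98, adjusted p = 0.81), and that of epiblast from ICM was 0.63 ± 0.40 (-0.27 to 1.53, adjusted p = 0.26). The ratio of the level of Drosha to that of Dgcr8 was 8.24, 3.12 and 4.13 in diapaused ICM, 5.01 and 4.8 in epiblast and 2.13, 2.27 and 3.6 in ICM. Epiblast lay above ICM in this ratio, while diapaused ICM overlapped with ICM. The Dgcr8 row is uncertain, because 10.7% of its exon bases lie opposite exons of Trmt2a, a tRNA methyltransferase gene on the other strand. The use of strand is not stated. Trmt2a was itself at 11.2, 22.3 and 24.3 in diapaused ICM, 19.5 and 24.6 in epiblast and 19.5, 65.2 and 20.9 in ICM, and passed in no comparison.

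For Xpo5, the nuclear export receptor of the cropped hairpin, the differences between groups were small and none passed. Levels were 6.88, 5.59 and 7.47 in diapaused ICM, 7.44 and 8.04 in epiblast and 7.76, 8.64 and 9.43 in ICM. All 3 diapaused ICM libraries lay below all 3 ICM libraries, but the gap was small, a difference of -0.33 ± 0.19 (95% interval -0.77 to 0.11, adjusted p = 0.31). For epiblast against ICM it was -0.13 ± 0.22 (-0.63 to 0.36, adjusted p = 0.67), with overlapping libraries.

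In both genes of the dicing pair the ICM libraries stood apart from all others. Tarbp2, the double-stranded RNA-binding partner that helps Dicer1 hold and hand over its substrate, was at 2.56, 5.95 and 3.93 in diapaused ICM, 4.02 and 5.75 in epiblast and 8.17, 10.5 and 16.3 in ICM. All 5 libraries outside ICM lay below all 3 ICM libraries. Tarbp2 fell in diapaused ICM to 0.356 of its mean in ICM, with a log2 difference of -1.30 ± 0.32 (95% interval -2.03 to -0.57, adjusted p = 0.029). For epiblast against ICM the difference was -1.07 ± 0.36 (-1.88 to -0.26) and just missed the threshold (adjusted p = 0.051), which it passed in 7 of 15 alternatives, and diapaused ICM and epiblast overlapped (-0.23 ± 0.36, adjusted p = 0.64). The call in diapaused ICM was lost without diapaused ICM replicate 1 (adjusted p = 0.083) or 3 (0.072) and without ICM replicate 2 (0.055) or 3 (0.088), and without the filter on low values (0.13), at differences that stayed between -1.54 and -1.05 over all alternatives.

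Dicer1, the nuclease that cuts the loop off the exported hairpin, was at 7.84, 4.53 and 5.57 in diapaused ICM, 5.27 and 6.79 in epiblast and 3.24, 3.41 and 3.78 in ICM. ICM libraries were again apart from the other 5, here below all of them. The mean was 1.72 times as high in diapaused ICM as in ICM, a difference of 0.62 ± 0.23 (95% interval 0.10 to 1.13), which did not pass after adjustment (adjusted p = 0.11). For epiblast against ICM it was 0.64 ± 0.25 (0.07 to 1.22, adjusted p = 0.084). The ratio of the level of Dicer1 to that of Tarbp2 was 3.06, 0.762 and 1.42 in diapaused ICM, 1.31 and 1.18 in epiblast and 0.396, 0.325 and 0.231 in ICM, so that Tarbp2 exceeded Dicer1 in all 3 ICM libraries and in 1 of the other 5. This ratio was formed after the values were seen and has no test. Of the 36-base stretches of Tarbp2 transcripts, 15.9% also occur in another gene model, most of them in Gm18584, which has no row among the deposited values. For Dgcr8 the share was 16.3%, so the Tarbp2 row is uncertain as well.

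The Argonautes bind the mature microRNA, and of the 4 mouse proteins Ago2, encoded by Eif2c2, is the best known slicer. Eif2c4 was the gene of the 9 that differed most between groups. Its level was 29.4, 44.6 and 20.5 in diapaused ICM, 3.04 and 3.76 in epiblast and 12.5, 36.9 and 9.27 in ICM. Every library of blastocyst origin was above both epiblast libraries, whereas diapaused ICM and ICM overlapped through ICM replicate 2. Eif2c4 was higher in diapaused ICM than in epiblast by 2.82 ± 0.53 (95% interval 1.62 to 4.02, adjusted p = 0.0043), with 9.26 times the mean, and kept that call under 15 of 15 alternatives, with differences from 2.54 to 3.14 and a highest adjusted p of 0.04.

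The same gene was lower in epiblast than in ICM by -1.99 ± 0.53 (95% interval -3.18 to -0.79, adjusted p = 0.022), at 0.174 of the ICM mean. This call was lost without epiblast replicate 1 (adjusted p = 0.12) or epiblast replicate 2 (adjusted p = 0.082), and without the filter on low values (adjusted p = 0.1). Between diapaused ICM and ICM, Eif2c4 differed by 0.83 ± 0.47 (-0.24 to 1.90, adjusted p = 0.3). Without ICM replicate 2 it was higher in diapaused ICM by 1.40 and passed (adjusted p = 0.034), so this library decides the call.

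Eif2c3, a close paralog next to Eif2c1 on chromosome 4, had the lowest mean level of the 9 genes in epiblast and ICM. It was at 2.5, 7.39 and 4.38 in diapaused ICM, 1.33 and 1.55 in epiblast and 1.96, 4.29 and 2.68 in ICM. Diapaused ICM and ICM overlapped, and both epiblast libraries were below all others. Eif2c3 rose in diapaused ICM relative to epiblast by 1.15 ± 0.38 (95% interval 0.29 to 2.01, adjusted p = 0.044), with 3.31 times the mean, but the call held in only 5 of the 14 alternatives that gave it a value. It was lost on leaving out diapaused ICM replicate 2 (adjusted p = 0.1) or 3 (0.088), either epiblast library (0.17 and 0.13), or ICM replicate 1 (0.051) or 3 (0.06). Against ICM the difference was 0.48 ± 0.34 in diapaused ICM (adjusted p = 0.41) and -0.67 ± 0.38 in epiblast (adjusted p = 0.22).

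Eif2c2 and Eif2c1 passed in no comparison. Eif2c2 was at 21.8, 12.8 and 23.3 in diapaused ICM, 17.4 and 19.1 in epiblast and 23, 22.1 and 28 in ICM. Its differences were -0.36 ± 0.26 in diapaused ICM against ICM (95% interval -0.94 to 0.23, adjusted p = 0.43) and -0.39 ± 0.29 in epiblast against ICM (-1.05 to 0.26, adjusted p = 0.33). Both epiblast libraries were below all ICM libraries, while diapaused ICM overlapped with either group. Eif2c1 was at 9.32, 5.88 and 6.7 in diapaused ICM, 8.86 and 8.04 in epiblast and 4, 9.36 and 3.54 in ICM, where replicate 2 alone reached the level of the other groups. Its difference between epiblast and ICM was 0.61 ± 0.36 (-0.21 to 1.44, adjusted p = 0.23), and without ICM replicate 2 it was 0.99 and passed (adjusted p = 0.03).

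The makeup of the Argonaute transcripts varied between libraries. The summed level of the 4 genes was 63, 70.7 and 54.9 in diapaused ICM, 30.6 and 32.4 in epiblast and 41.5, 72.7 and 43.5 in ICM. Both epiblast libraries were below all others. Eif2c4 gave 46.7%, 63.1% and 37.4% of that sum in diapaused ICM, 9.93% and 11.6% in epiblast and 30.2%, 50.8% and 21.3% in ICM. Eif2c2 gave 34.6%, 18.1% and 42.4% in diapaused ICM, 56.8% and 58.8% in epiblast and 55.4%, 30.4% and 64.4% in ICM. The largest share thus belonged to Eif2c4 in diapaused ICM replicates 1 and 2 and in ICM replicate 2, and to Eif2c2 in the other 5 libraries. These shares were formed from values already described and were not tested. Eif2c1, Eif2c3 and Eif2c4 lie together on chromosome 4. Eif2c3 and Eif2c4 were lower in both epiblast libraries than in any other, while Eif2c1 overlapped between the groups in each of the 3 comparisons.

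**Figure D2:**
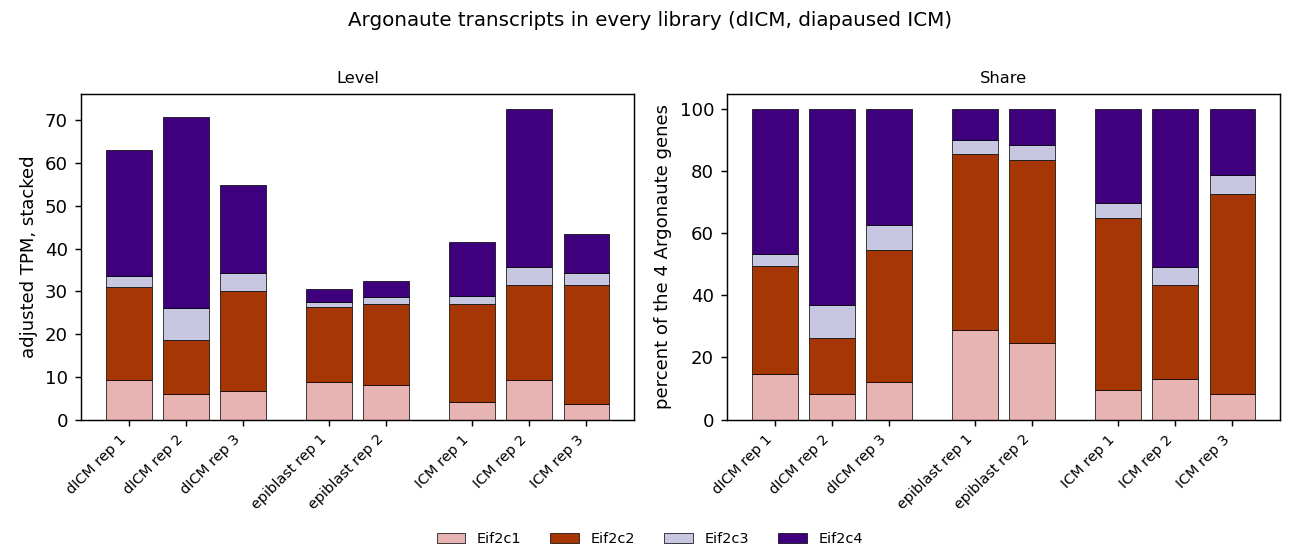
Level of the 4 Argonaute transcripts (adjusted TPM) stacked for each of the 8 libraries at the left, and as a percent of their sum at the right, with diapaused ICM (dICM) first, then epiblast, then ICM. The Eif2c4 segment makes up 37.4% to 63.1% of the sum in diapaused ICM, 9.93% and 11.6% in epiblast and 21.3% to 50.8% in ICM.

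Counted over the machinery, 0 of the 9 genes rose and 1 fell (Tarbp2) in diapaused ICM against ICM by limma's adjusted p, where 13.3% of all genes tested were called, 7.52% higher and 5.81% lower. At an unadjusted p under 0.05, 2 were higher (Drosha and Dicer1) and 1 was lower. The median difference of the 9 was 0.41, against 0.00 over all genes. Groups did not overlap for 4 of the 9, against 30.7% of all genes, with Drosha and Dicer1 above (16.4% of all genes) and Xpo5 and Tarbp2 below (14.4%).

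For epiblast against ICM, 1 rose (Drosha) and 1 fell (Eif2c4), where 30.1% of all genes were called, 16.7% higher and 13.3% lower. The median was -0.13, against 0.14 over all genes. Groups did not overlap for 6 of the 9, against 59.0%, with Drosha and Dicer1 above (33.9% of all genes) and Tarbp2, Eif2c2, Eif2c3 and Eif2c4 below (25.0%). Between diapaused ICM and epiblast 2 rose (Eif2c3 and Eif2c4) and 0 fell by the adjusted p, and 0 were lower at an unadjusted p under 0.05, where 34.5% of all genes were called, 16.0% higher and 18.6% lower. The median was -0.20, against -0.11 over all genes, and 4 of the 9 did not overlap, against 61.4%, with Eif2c3 and Eif2c4 above (27.3%) and Drosha and Dgcr8 below (34.1%). The number of calls among the 9 was close to or below the share over all genes in each comparison. These counts therefore mark out neither the machinery as a group nor its members. Over all genes, the calls were 1331 higher and 1029 lower in diapaused ICM against ICM and 2963 and 2361 in epiblast against ICM. After rescaling without the most abundant genes they were 1042 and 1400, and 2021 and 2664.

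**Figure D3:**
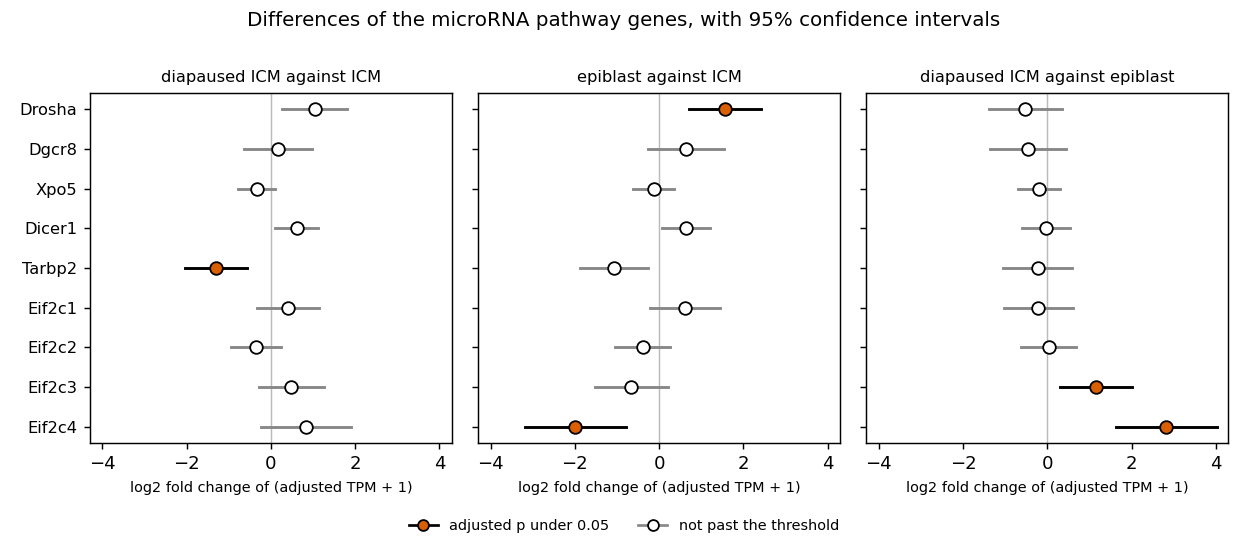
Difference on the log2(value + 1) scale (horizontal axis, 95% interval as lines) for each of the 9 genes in the 3 comparisons, with filled points for an adjusted p under 0.05 in limma's test. Eif2c4 at 2.82 in diapaused ICM against epiblast is the farthest from 0, and Tarbp2 at -1.30 is the filled point in diapaused ICM against ICM.

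The order of the 9 levels was not the same in the groups. Orders, ratios and shares of different genes assume values corrected alike for length, and how the values were adjusted is not stated. In diapaused ICM the means ran from Drosha (68 ± 12.8) through Eif2c4 (31.5 ± 12.2), Eif2c2 (19.3 ± 5.65), Dgcr8 (14.8 ± 4.72), Eif2c1 (7.3 ± 1.79), Xpo5 (6.65 ± 0.963), Dicer1 (5.98 ± 1.7) and Eif2c3 (4.76 ± 2.47) to Tarbp2 (4.15 ± 1.7), n = 3 each. Among neighbours in that order, only Drosha and Eif2c4, and Dgcr8 and Eif2c1, had libraries that did not overlap. In epiblast, with n = 2, Drosha (97.6 ± 9.6) was followed by Dgcr8 (19.9 ± 2.55) and Eif2c2 (18.2 ± 1.19), which overlapped, and Eif2c4 (3.4 ± 0.511) came eighth of the 9. In ICM, with n = 3, Drosha (34.5 ± 14.2) was followed by Eif2c2 (24.4 ± 3.16), Eif2c4 (19.6 ± 15.1), Dgcr8 (13.3 ± 6.27) and Tarbp2 (11.7 ± 4.2), and every pair of neighbours in the order overlapped. Over all libraries Drosha had a mean above 89.8% of the genes tested and Eif2c3 above 43.1%.

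Little sequence was shared between the Argonaute paralogs. Of the 36-base stretches of each gene, 1.88% of those of Eif2c1, 0.129% of Eif2c2, 0.815% of Eif2c3 and 0.0434% of Eif2c4 also occur in another Argonaute. Eif2c2 shares 5.91% with any other gene, most of it with the pseudogene Gm6088, whose mean level was 0.637 in diapaused ICM, 0.396 in epiblast and 0.982 in ICM. Neither the read length nor the handling of shared reads is stated in the sources.

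Genes with the most similar profiles over the 8 libraries were named by the smallest root mean square difference of mean-centred log2 values. For Eif2c4, among 5560 genes of mean level 5 or more, these were Smco1 and Rmdn1, each at 0.28, where the SD of Eif2c4 itself was 1.33. Rmdn1 shares 22 stretches of 36 bases with Eif2c4. For Tarbp2 they were Thg1l, a tRNA-histidine guanylyltransferase gene, at 0.23 and Nucb2 at 0.26, for Drosha Trim27 at 0.18 and Ube2b at 0.23, and for Eif2c3 Dnajc1 at 0.16 and Rapgef6 at 0.18.

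The partners of the machinery were read from 8 lists with 108 genes, of which 105 were tested. Between diapaused ICM and ICM 10 of them rose and 6 fell, in epiblast against ICM 21 rose and 18 fell, and in diapaused ICM against epiblast 24 rose and 23 fell, beside 13.3%, 30.1% and 34.5% of all genes called in the same 3 comparisons. The 13 nuclear partners of the Microprocessor, which include RNA helicases and cap-binding proteins, had 0 calls by limma in diapaused ICM against ICM, and 1 higher and 3 lower at an unadjusted p under 0.05 (median difference -0.19). In epiblast against ICM 3 rose and 3 fell, among them Ncbp1 (1.34 ± 0.33, adjusted p = 0.016) and Ncbp2 (-1.45 ± 0.26, adjusted p = 0.0042), the large and small subunits of the nuclear cap-binding complex. The Ncbp1 call was lost without epiblast replicate 1 or 2 and without the filter on low values (highest adjusted p 0.11). Khsrp, which binds the loop of some hairpins, fell in epiblast relative to ICM by 1.23 on the log2 scale (adjusted p = 0.0056), and this call was lost without epiblast replicate 1 (adjusted p = 0.067).

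Of the 3 partners of export and dicing, 2 rose in epiblast against ICM and 1 fell in diapaused ICM against epiblast. The shares of all genes called in those directions were 16.7% and 18.6%. Ran, the GTPase that Xpo5 needs to bind its cargo, was at 144, 139 and 155 in diapaused ICM, 628 and 618 in epiblast and 261, 190 and 264 in ICM. The 3 groups did not overlap. Ran was lower in diapaused ICM than in epiblast by -2.09 ± 0.23 (adjusted p = 0.00033) and higher in epiblast than in ICM by 1.40 ± 0.23 (adjusted p = 0.0028), each kept in 15 of 15 alternatives, whereas diapaused ICM against ICM gave -0.69 and did not pass (adjusted p = 0.06). Prkra, which encodes PACT, the other double-stranded RNA-binding partner of Dicer1, was at 0.0975, 2.5 and 0.698 in diapaused ICM, 3 and 3.95 in epiblast and 0.0605, 0.133 and 0.158 in ICM. It rose in epiblast relative to ICM by 2.00 ± 0.44 (adjusted p = 0.01). That call was lost without epiblast replicate 1 or 2 and without the filter on low values. Diapaused ICM and ICM overlapped in Prkra, and their difference of 0.74 did not pass (adjusted p = 0.27). In ICM, then, Tarbp2 was at its highest and Prkra near 0, but Prkra was as low in diapaused ICM replicate 1.

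Of 9 chaperones and nuclease subunits that help load an Argonaute, 0 rose and 3 fell in diapaused ICM against ICM. Over all genes, 7.52% were called higher and 5.81% lower. The median difference of the 9 was -0.71, against 0.00 over all genes. At an unadjusted p under 0.05, 0 were higher and 6 lower, again without a share of all genes at that p. Stip1, which links Hsp70 to Hsp90, was at 79.6, 84.4 and 87.5 in diapaused ICM, 108 and 116 in epiblast and 270, 290 and 213 in ICM, a difference between diapaused ICM and ICM of -1.60 ± 0.20 (adjusted p = 0.0014). The Hsp90 co-chaperone Fkbp4 fell as well (-1.42 ± 0.22, adjusted p = 0.0043), and both calls were kept in 15 of 15 alternatives. Hspa8, the constitutive Hsp70, was lower by -1.02 ± 0.21 (adjusted p = 0.014), a call lost without diapaused ICM replicate 1 and without the filter on low values (highest adjusted p 0.21). Against epiblast, 0 were higher at either p and 5 fell in diapaused ICM, beside 16.0% of all genes called higher and 18.6% lower. The smallest adjusted p was that of Hsp90aa1, at 384, 469 and 516 in diapaused ICM and 4380 and 2740 in epiblast (-2.93 ± 0.36, adjusted p = 0.00053). These chaperones serve many client proteins, and those with many processed copies in the genome, such as Hspa8 and Hsp90aa1, are uncertain in how their reads were assigned.

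The 32 silencing effectors act after an Argonaute has found its target, by shortening the poly(A) tail, removing the cap and repressing translation. By limma's adjusted p, 0 of the 32 were called in diapaused ICM against ICM, beside 13.3% of all genes, with a median of 0.30. At an unadjusted p under 0.05, 8 were higher and 2 lower, with no share of all genes at that p to set beside them. The 3 Tnrc6 genes, whose GW182 proteins link an Argonaute to the deadenylases, were named after their values were seen. Their differences between diapaused ICM and ICM were 0.66 ± 0.27 for Tnrc6a (adjusted p = 0.15), 0.86 ± 0.34 for Tnrc6b (adjusted p = 0.14) and 0.95 ± 0.31 for Tnrc6c (adjusted p = 0.076), none of which passed.

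Epiblast differed from ICM in 13 of the 32 effectors, with 3 higher and 10 lower. Of all genes tested, 30.1% were called, 16.7% higher and 13.3% lower. Mov10, an RNA helicase that associates with Argonautes, was at 2.73, 7.49 and 12.2 in diapaused ICM, 0.0634 and 0.0356 in epiblast and 9.24, 8.28 and 8.05 in ICM. Both epiblast libraries were thus near 0, with differences of -3.18 ± 0.44 for epiblast against ICM (adjusted p = 0.0012) and 2.83 ± 0.44 for diapaused ICM against epiblast (adjusted p = 0.0018). Cnot2, a subunit of the CCR4-NOT deadenylase, was at 134, 187 and 199 in diapaused ICM, 46.5 and 64.7 in epiblast and 322, 255 and 238 in ICM (epiblast against ICM -2.28 ± 0.28, adjusted p = 6e-04). Gigyf2, a translational repressor, fell in epiblast relative to ICM too (-1.54 ± 0.27, adjusted p = 0.0036), while Ajuba, a LIM protein, rose (2.24 ± 0.27, adjusted p = 0.00058). Relative to epiblast, 9 of the 32 rose in diapaused ICM and 1 fell, beside 16.0% and 18.6% of all genes.

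Factors that control let-7, a microRNA family of differentiating cells, held the largest difference among the partners. Lin28b, which blocks processing of let-7 precursors, was at 0.68, 0.0663 and 0.406 in diapaused ICM, 42.9 and 46.8 in epiblast and 1.33, 0.385 and 0.91 in ICM. It was lower in diapaused ICM than in epiblast by -5.07 ± 0.29 (adjusted p = 1.7e-05) and higher in epiblast than in ICM by 4.64 ± 0.29 (adjusted p = 2e-05). Its paralog Lin28a was at 57, 72.9 and 64.9 in diapaused ICM, 141 and 125 in epiblast and 20.8, 22.3 and 24 in ICM, and no pair of groups overlapped. Lin28a rose in diapaused ICM relative to ICM (1.49 ± 0.20, adjusted p = 0.0018), and so did Zswim8, the substrate receptor of a ubiquitin ligase that acts in target-directed microRNA decay (1.71 ± 0.25, adjusted p = 0.0028). Zswim8 was at 6.31, 3.37 and 3.8 in diapaused ICM, at 0.679 and 0.795 in epiblast and between 0.5 and 0.823 in ICM. In all, 2 of the 11 genes on this list rose in diapaused ICM against ICM and 0 fell, at the adjusted or the unadjusted p. By the adjusted p, 7.52% of all genes rose and 5.81% fell.

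The PIWI clade, the germline relatives of the Argonautes, was at low levels. Piwil1 stayed at or below 0.0812 and Piwil4 at or below 0.0512 in every library, so that only Piwil2 of the 3 was tested, and it passed in no comparison. Of 16 described targets of let-7 and the miR-290 family, 15 were tested. In diapaused ICM against ICM 0 rose and 2 fell, beside 7.52% and 5.81% of all genes. At an unadjusted p under 0.05, 2 were higher and 4 lower. Hmga2, a chromatin protein and let-7 target, was at 36.5, 29.4 and 46.9 in diapaused ICM, 31.7 and 29.4 in epiblast and 121, 93.8 and 171 in ICM (diapaused ICM against ICM -1.73 ± 0.28, adjusted p = 0.0045). Cdc34, a ubiquitin-conjugating enzyme of the cell cycle, fell by 0.93 on the log2 scale (adjusted p = 0.029), a call lost in 6 of 15 alternatives, among them leaving out diapaused ICM replicate 1 or 3 or ICM replicate 1 or 3 (highest adjusted p 0.091).

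Many microRNAs lie inside the transcript of a host gene. The host level is that of the host RNA, and neither transcription of the locus nor the microRNA itself was measured. Of 21 host transcripts, 8 rose and 1 fell in diapaused ICM against ICM, with a median difference of 0.78, against 0.00 over all genes. Of all genes tested, 7.52% were called higher and 5.81% lower. The 8 include Rian, whose call (1.24 ± 0.33, adjusted p = 0.039) was lost in 11 of 15 alternatives, among them leaving out each library but diapaused ICM replicate 2 (highest adjusted p 0.15). The 21 include Larp7, whose listed microRNAs lie on the other strand, so that its RNA does not carry them. In epiblast against ICM, 6 hosts rose and 1 fell (median 0.63, against 0.14), beside 16.7% and 13.3% of all genes. Only Rian and H19 were called higher than in ICM in both diapaused ICM and epiblast. Mcm7 fell in diapaused ICM and rose in epiblast, while Ctdsp2 rose in diapaused ICM and fell in epiblast, each against ICM. In diapaused ICM against epiblast, 6 rose and 5 fell (median 0.14, against -0.11), beside 16.0% and 18.6%. Several hosts carry microRNAs with the same seed, the bases 2 to 8 that pair with the target, shown in capitals in the mature sequences from RefSeq (GRCm38.p6) so that the families can be compared. These host families were picked for shared seeds after the levels were known, and they include members that did not change.
mmu-miR-26a-5p: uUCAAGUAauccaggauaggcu
mmu-miR-26b-5p: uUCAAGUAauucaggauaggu
mmu-miR-103-3p: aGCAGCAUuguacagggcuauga
mmu-miR-107-3p: aGCAGCAUuguacagggcuauca
mmu-miR-148b-3p: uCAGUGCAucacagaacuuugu
mmu-miR-152-3p: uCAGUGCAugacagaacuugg
mmu-miR-16-5p: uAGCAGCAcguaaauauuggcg
mmu-miR-15b-5p: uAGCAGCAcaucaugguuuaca
mmu-miR-93-5p: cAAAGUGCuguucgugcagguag
mmu-miR-106b-5p: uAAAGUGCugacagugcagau
mmu-miR-17-5p: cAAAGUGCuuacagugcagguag
mmu-miR-20a-5p: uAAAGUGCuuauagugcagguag

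The miR-26 seed UCAAGUA is carried by 3 paralogous phosphatase genes. Ctdsp2, a host of miR-26a, was at 24, 35.2 and 36.6 in diapaused ICM, 5.58 and 5.94 in epiblast and 13.5, 9.51 and 11.6 in ICM. Ctdspl, the other host of miR-26a, was at 4.64, 4.74 and 5.47 in diapaused ICM, 1.27 and 1.66 in epiblast and 1.45, 0.448 and 1.32 in ICM. In both genes diapaused ICM lay above all other libraries, and both rose relative to ICM (Ctdsp2 1.38 ± 0.23, adjusted p = 0.0058, and Ctdspl 1.56 ± 0.25, adjusted p = 0.0043) and relative to epiblast (2.26, adjusted p = 0.00041, and 1.27, adjusted p = 0.0085). The Ctdspl call against epiblast was lost without epiblast replicate 1 (highest adjusted p 0.071). Ctdsp1, the host of miR-26b, was at 3.25, 5.97 and 3.81 in diapaused ICM, 4.02 and 3.62 in epiblast and 2.18, 1.75 and 2.42 in ICM, and its difference from ICM of 0.75 ± 0.23 did not pass (adjusted p = 0.067).

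Hosts of the seed GCAGCAU, shared by miR-103 and miR-107, are the pantothenate kinase genes, whose enzymes start coenzyme A synthesis. Pank3, a host of miR-103, was at 10.1, 8.17 and 10.9 in diapaused ICM, 2.36 and 3.4 in epiblast and 3.68, 5.07 and 5.02 in ICM. It rose in diapaused ICM relative to ICM by 0.94 ± 0.22 (adjusted p = 0.022), a call lost in 5 of 15 alternatives, among them leaving out diapaused ICM replicate 1 or 3 or ICM replicate 1 (highest adjusted p 0.085). Pank1, the host of miR-107, rose too, at 1.87, 2.37 and 1.38 in diapaused ICM, 1.38 and 0.573 in epiblast and 0.183, 0.0607 and 0.0231 in ICM (1.39 ± 0.27, adjusted p = 0.01). Pank2, the other host of miR-103, stayed between 19.5 and 23.9 in the 8 libraries, with a difference between diapaused ICM and ICM of -0.08 ± 0.19 (adjusted p = 0.85).

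The seed CAGUGCA of miR-148 and miR-152 is carried by a pair of coatomer subunit genes. Copz2, the host of miR-152, was at 12.4, 2.74 and 8.93 in diapaused ICM, at most 0.00144 in epiblast and at most 0.178 in ICM. It was thus near 0 outside diapaused ICM, and rose relative to ICM (2.89 ± 0.42, adjusted p = 0.0029) and to epiblast (2.99 ± 0.47, adjusted p = 0.0019). Copz1, the host of miR-148b, overlapped between diapaused ICM (47.6, 31.6 and 40) and ICM (42.5, 37.7 and 33.3), with a difference of 0.05 ± 0.22 (adjusted p = 0.91).

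Dleu2, a long noncoding RNA that hosts miR-16, was at 38.3, 14.8 and 12.8 in diapaused ICM, 2.13 and 1.84 in epiblast and 3.18, 4.51 and 1.71 in ICM, and rose relative to ICM by 2.37 ± 0.41 (adjusted p = 0.0066), a call lost without the filter on low values (adjusted p = 0.058). All diapaused ICM libraries were above all others. Smc4, a condensin gene that hosts a further copy of miR-16 and miR-15b, was at 180, 213 and 236 in diapaused ICM, 680 and 380 in epiblast and 353, 240 and 314 in ICM. It fell in diapaused ICM relative to epiblast (-1.28 ± 0.31, adjusted p = 0.012), a call lost without epiblast replicate 1 (adjusted p = 0.12), while against ICM the difference of -0.52 ± 0.27 did not pass (adjusted p = 0.26).

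Mcm7, a subunit of the replicative helicase that hosts miR-93 and miR-106b, was at 16.5, 27.4 and 25.8 in diapaused ICM, 125 and 98.5 in epiblast and 61.2, 44 and 59.6 in ICM. The groups did not overlap, and Mcm7 fell in diapaused ICM relative to ICM by 1.22 on the log2 scale (adjusted p = 0.016) and relative to epiblast by 2.24 (adjusted p = 0.00071). The call against ICM was lost without ICM replicate 1 or 3 and without the filter on low values (highest adjusted p 0.064 over the alternatives). Mir17hg, the noncoding host of miR-17 and miR-20a with the same seed AAAGUGC, was at 4.68, 3.88 and 3.9 in diapaused ICM, 3.41 and 2.8 in epiblast and 4.61, 6.06 and 4.96 in ICM, and its difference between diapaused ICM and ICM was -0.27 ± 0.19 (adjusted p = 0.43). H19, a noncoding host also on the list, rose in diapaused ICM relative to ICM by 2.40 ± 0.43 (adjusted p = 0.0072), with 28.8, 24.8 and 78.2 in diapaused ICM, 74.1 and 73.2 in epiblast and 4.15, 9.22 and 6.82 in ICM. That call was lost without the filter on low values (adjusted p = 0.06).

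**Figure D4:**
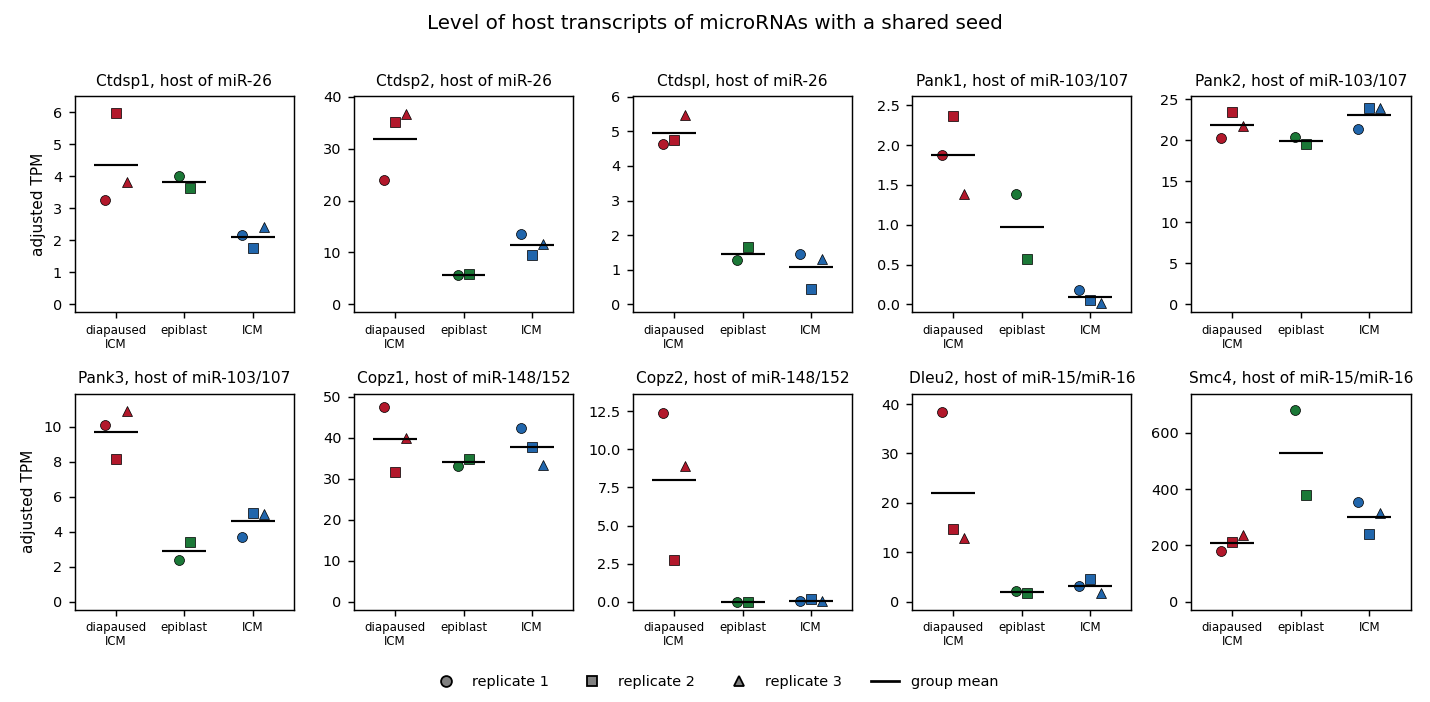
Level of host transcripts grouped by the seed of their microRNAs (vertical axis, adjusted TPM, a separate scale in each panel) in every library, with diapaused ICM at the left, epiblast in the middle and ICM at the right; points are libraries and horizontal bars are group means. Copz2 reaches 2.74 to 12.4 in diapaused ICM and at most 0.178 elsewhere, while Pank2 and Copz1 overlap between diapaused ICM and ICM.

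The table also has 652 rows named for microRNA hairpins, of which 406 were tested. Their median was 0.746 to 1.26 in diapaused ICM, 1.58 and 1.74 in epiblast and 0.757 to 1.16 in ICM. Of the 406, 74 were higher and 1 lower in epiblast against ICM, beside 16.7% and 13.3% of all genes. In diapaused ICM against epiblast, 1 was higher and 102 lower, beside 16.0% and 18.6%. In diapaused ICM against ICM, 1 was higher and 0 lower, beside 7.52% and 5.81%. Rows of microRNAs known from other tissues also held values of 1 or more. Mir122a, of a liver microRNA, was at 1.91, 1.7 and 1.74 in diapaused ICM, 1.81 and 2.96 in epiblast and 3.34, 2.72 and 2.65 in ICM, whereas Mir302d, of a pluripotency microRNA, was at 2.31, 3.16 and 1.87, at 4.38 and 6.44, and at 3.82, 4.03 and 2.25 in the same order. Mir302d had the higher mean of the pair in each group, with overlapping ranges in diapaused ICM and ICM. The protocol in the labels has no step that selects small RNAs, and these rows were not read as microRNA levels.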

How the data were processed

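RNA of 8 pools of embryos was sequenced after amplification with the WT-Ovation Pico kit, per the labels' protocols. Each deposited value is a signal for a gene in a library, named adjusted TPM in the authors' columns, and the sources do not say what the adjustment was. The columns do not share a total, so the values were not treated as TPM proper, the unit assumed when the tests were chosen, and the test on log2(value + 1) was kept. The submitters' processing notes list Bowtie 0.12.5, DESeq and mm9, with no role for any of them. Annotation, use of strand and read depth are not stated, so no counting interval can be had.

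A single fit of the 8 libraries by limma 3.58.1 (R 4.3.3) had a term for each group only (residual degrees of freedom 5, prior 3.97, variance trend on mean level). Genes at 1 or more in at least 2 libraries were tested, two-sided. The test was run on simulated data first. Alternatives were a pseudocount of 0.1, no filter, a minimum of 5, quantile normalization, rescaling without 43 genes above 0.5% of a library, a replicate block, fits of only the groups compared, and leaving out each library. Libraries labelled as biological replicates correlated at 0.944 to 0.968 within groups. The labels do not say whether the pools came from separate females, so p-values measure the spread between these pools.

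Of the lists, up to 4 called genes of smallest adjusted p were named per list and comparison, and any gene of the let-7 and PIWI lists; other names were chosen after their values were seen. The 9 genes and all lists were chosen with earlier results of these data known. Of 204 repeated symbols none was among the 9. Shared stretches and overlapping exons were found in GENCODE vM21 (GRCm38), another build than that of the files, and no coordinates are given.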

Additional observations from a re-analysis of the deposited data

How the results depend on the processing

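No called difference of the 9 genes or of the listed genes changed direction under these alternatives. Among the 9 genes, 372 repeats kept their side of the threshold, 10 gained a call and 20 lost it. Without the filter on low values, which tests all 38924 genes, the calls among the 9 numbered 0 for diapaused ICM against ICM (1 with the filter), 0 for epiblast against ICM (2) and 1 for diapaused ICM against epiblast (2), and 1278 genes in all were called in the first comparison (2360). Quantile normalization gave 2 calls for diapaused ICM against ICM. For diapaused ICM against epiblast, 1 of the 9 was called with a minimum of 5, at which Eif2c3 is not tested, with rescaling, and with only the 2 groups fitted, where Eif2c3 lost its call; the cause of the last 2 was not tested. Leaving out each library gave 0 to 1, 0 to 3 and 1 to 2 calls among the 9 in the 3 comparisons, and 1404 to 2148, 1788 to 5257 and 2539 to 6351 calls over all genes, against 2360, 5324 and 6113. The fewest in the first were without ICM replicate 1, with 1583 without ICM replicate 3. In epiblast against ICM, 1788 and 2618 were called without epiblast replicates 1 and 2, and in diapaused ICM against epiblast 2539 and 3196. The lone epiblast library is then assumed to vary like the other groups.

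Rescaling without the most abundant genes moved the median of all genes by over 0.1, to -0.13 in diapaused ICM against ICM and 0.01 in epiblast against ICM. The calls over all genes were then 1042 higher and 1400 lower in the first comparison (1331 and 1029 before) and 2021 and 2664 in the second (2963 and 2361). Tarbp2 was called in both under this scaling, at -1.47 (adjusted p = 0.016) and -1.23 (adjusted p = 0.034). With the replicate number as a block, 1, 2 and 2 of the 9 genes and 2004, 4475 and 5314 of all genes were called in the 3 comparisons. Same-numbered libraries of diapaused ICM and ICM correlated at 0.017, 0.103 and 0.131 in their deviations from the group means. Libraries of different number in these groups correlated at -0.148 to 0.033. The main fit did not pair them, and whether the numbers pair the pools is not known. The number of pools and the unknown depth limit all of these values.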
